A study of Mus musculus with 12 samples.

Results

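The miR-23, miR-27 and miR-24 microRNAs are made from a pair of clusters of hairpins, 1 on mouse chromosome 8 and 1 on chromosome 13, and 7 mature strands of these clusters were followed here among the 1908 miRNAs of the deposited count table. The strands were chosen by name, namely mmu-miR-23a-3p, mmu-miR-23b-3p, mmu-miR-27a-3p, mmu-miR-27b-3p, mmu-miR-24-3p, mmu-miR-24-1-5p and mmu-miR-24-2-5p, written from here on without the species prefix. Hippocampal small RNA was sequenced for 12 male mice, all 3 months old and C57BL/6, that were littermates of heterozygous Gld2 crosses. Of these, 6 were wild type (WT) and 6 were GLD2-/- (GLD2KO), with 1 library per mouse. Gld2, also called Tent2, is an enzyme that lengthens RNA 3′ ends with adenosines, and the study asked about its part in adding untemplated nucleotides to miRNAs. The table counts reads per miRNA, so levels were compared here, while added nucleotides were not analysed. The Gld2 transcript is not a small RNA and was not measured in these counts, so the genotypes are as labelled.

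A miRNA is cut from a hairpin precursor, and mostly 1 arm of the hairpin stays bound to an Argonaute protein while the other arm is degraded. The bound strand finds its mRNA targets mainly through its seed, bases 2 to 8 from the 5′ end. Hairpins of a cluster are transcribed together and then cut out one by one, so strands of a cluster share a transcript but not necessarily the later steps. In this group the 3p strands are the ones known to act. Among brain cells miR-23 strands are known from astrocytes, miR-27 strands are known as repressors of fat cell formation and as miRNAs of blood vessels, and miR-24-3p is known to hold back cell division in human cells.

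The hairpins lie close together in GRCm38, all 3 of each cluster on the plus strand. On chromosome 8, Mir23a (84208518 to 84208592), Mir27a (84208672 to 84208758) and Mir24-2 (84208815 to 84208921) span 404 bases and lie within no other annotated gene. On chromosome 13, Mir23b (63300484 to 63300557), Mir27b (63300712 to 63300784) and Mir24-1 (63301208 to 63301275) span 792 bases. They lie within the protein-coding gene 2010111I01Rik on the same strand, with Mir23b in an intron and the other two overlapping an annotated exon of at least 1 transcript. Fancc overlaps them on the minus strand, without an exon there. The hairpins Mir3074-2 and Mir3074-1 lie on the minus strand opposite Mir24-2 and Mir24-1.

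**Figure D1:**
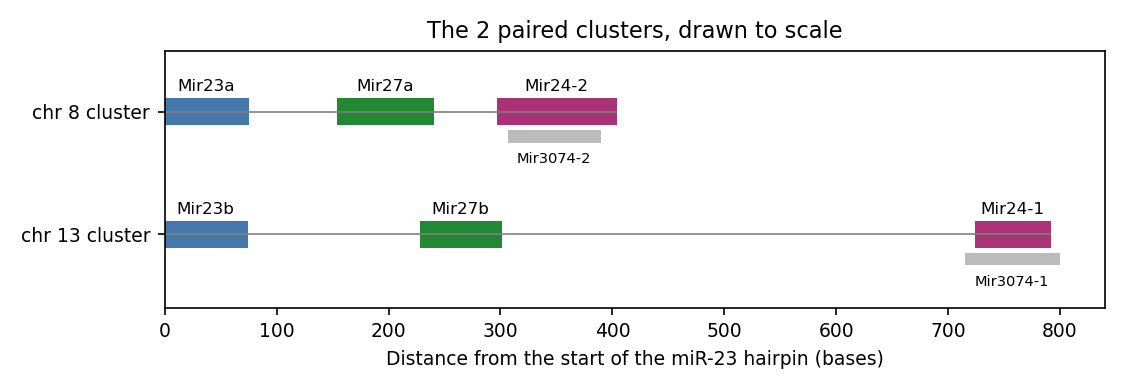
Positions of the hairpins of both clusters, with the distance in bases from the start of the miR-23 hairpin on the horizontal axis; coloured bars are plus-strand hairpins and grey bars the Mir3074 hairpins on the minus strand. The order 23, 27, 24 is the same in both, over 404 bases on chromosome 8 and 792 bases on chromosome 13, with the longest gap, 423 bases, between Mir27b and Mir24-1.

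The mature sequences show which strands a read can tell apart, and are given 5′ to 3′ from RefSeq (GRCm38.p6), where 6 of the 7 strands were matched, with the seed in capitals.
miR-23a-3p: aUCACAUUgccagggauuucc
miR-27a-3p: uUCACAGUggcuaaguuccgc
miR-27b-3p: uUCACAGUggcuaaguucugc
miR-24-3p: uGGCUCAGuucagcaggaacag
miR-24-1-5p: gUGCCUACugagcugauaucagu
miR-24-2-5p: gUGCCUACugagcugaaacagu
miR-128-3p: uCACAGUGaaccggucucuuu
The miR-27 strands (chr8:84208727-84208747 and chr13:63300760-63300780, both plus strand) are equal at 20 of 21 bases and differ by C19U, counted from 1 at the 5′ end, with miR-27a-3p as the reference. The sequence of miR-24-3p is the same in both clusters (chr8:84208875-84208896 and chr13:63301251-63301272), so its counts cannot be given to either hairpin. Its opposite arms are not identical, as miR-24-1-5p and miR-24-2-5p share their first 16 bases and their last 4. Among the miRNAs of the table with a known sequence, no strand outside the group shared one of these seeds and had a count. The neuronal miR-128-3p is shown because its first bases repeat a stretch of miR-27, the 8 bases UCACAGUG, which begin at base 2 of miR-27a-3p and at base 1 of miR-128-3p. Its seed is therefore that of miR-27 shifted by 1 base.

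Libraries held between 2197915 and 3761106 counts. Over all 521 miRNAs with enough counts to test, edgeR's quasi-likelihood test called 0 at an adjusted p under 0.05, with 25 at an unadjusted p under 0.05. The same count of unadjusted p-values was 45 with DESeq2, which gave an adjusted p to 1317 miRNAs, and 23 of 521 with limma-voom. Each called 0 as well. Neuronal markers were high throughout, with the summed level of 5 such miRNAs between 109126 and 361780 counts-per-million (CPM) over the WT libraries and between 147532 and 272764 CPM over the GLD2KO libraries. The hippocampus was sequenced whole, so fewer cells of a type and less RNA per cell cannot be told apart.

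Together the 7 strands took on average 1.60 ± 0.32% of a WT library's counts and 1.76 ± 0.418% of a GLD2KO library's (SD, 6 libraries each). The miR-23 strands made up 0.987 ± 0.194% and 0.926 ± 0.305%, the miR-27 strands 0.172 ± 0.0837% and 0.138 ± 0.0754%, and the miR-24 strands 0.445 ± 0.203% and 0.701 ± 0.462%. The order of mean levels over the 12 libraries was miR-24-3p at 5855 CPM, miR-23b-3p at 4943 CPM, miR-23a-3p at 4695 CPM, miR-27b-3p at 1208 CPM and miR-27a-3p at 278 CPM. The strands with a known sequence are 21 to 23 bases long, so CPM needs no length correction between them, but ligation and amplification can favour a sequence. The first 3 places were not fixed. The level of miR-24-3p exceeded that of miR-23b-3p in 6 of 12 libraries, and miR-23b-3p exceeded miR-23a-3p in 9 of 12. The lower places were the same in every library, with miR-27b-3p below miR-23a-3p and above miR-27a-3p in 12 of 12.

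No strand of the group passed the test of a genotype difference. Of the 7 strands, 5 had enough counts to test. Of these 0 passed at an adjusted p of 0.05, as did 0% of all 521 miRNAs, and 3 had fold changes below 0 and 2 above. None of the 5 reached an unadjusted p under 0.05 (the lowest was 0.265), against 4.8% of the 521. Their median log2 fold change, GLD2KO minus WT, was -0.23, against 0.12 over all tested miRNAs. With all 12 libraries the WT and GLD2KO ranges overlapped for all 5, while ranges were apart for 0.576% of the tested miRNAs.

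The most even strand was miR-23b-3p, from the chromosome 13 cluster. In WT its lowest, median and highest levels were 4775, 5429 and 5806 CPM, and in GLD2KO 3702, 3915 and 7785 CPM. The highest value was that of GLD2KO replicate 1, and the other 5 GLD2KO libraries, at 3702 to 4073 CPM, all lay under the lowest WT library. Means of the 6 libraries were 5342 ± 454 CPM for WT and 4544 ± 1593 CPM for GLD2KO (SD). On the log2 scale the fold change was -0.23 (SE 0.33, 95% interval -0.93 to 0.46, adjusted p = 0.978 by edgeR).

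Its chromosome 8 relative miR-23a-3p had the same arrangement of libraries. The lowest, median and highest levels were 4014, 4391 and 6120 CPM in WT and 3287, 3615 and 10280 CPM in GLD2KO. Again GLD2KO replicate 1 was above every WT library and the other 5 GLD2KO libraries, at 3287 to 3986 CPM, were below every WT library. The means were 4681 ± 760 and 4709 ± 2739 CPM, and the fold change on the log2 scale was 0.01 (SE 0.37, 95% interval -0.77 to 0.79, adjusted p = 0.993 by edgeR).

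The fold change of miR-23a-3p lay near 0 and had no settled direction, and leaving out GLD2KO replicate 1 moved it furthest. Without that library the log2 fold change was -0.39 for miR-23a-3p (SE 0.31) and -0.45 for miR-23b-3p (SE 0.30), with an edgeR adjusted p of 0.955 for each. The library was singled out after its values were seen. Without it, ranges of scaled CPM did not overlap, with GLD2KO lower, for 2 of the 5 tested strands and for 0.576% of all 521 miRNAs. The miRNAs of that share are 3 in number, the remaining one being miR-153-5p. This separation depends on the scaling between libraries. As an unscaled share of counts, the miR-23 strands together took 0.878%, 1.03% and 0.849% in GLD2KO replicates 2, 3 and 5. These lay within the WT range of 0.790% to 1.35%, while replicates 4 and 6, at 0.616% and 0.703%, lay below it. In GLD2KO replicate 1 the summed CPM of 5 neuronal markers (272764), of 3 oligodendrocyte markers (30583) and of 4 vascular markers (10210) was the highest of the GLD2KO libraries, but the markers within a list did not go together. Of the vascular markers miR-126a-3p (6816 CPM) and miR-126a-5p (2713 CPM) were the highest of the GLD2KO libraries there, while miR-143-3p (376 CPM) and miR-145a-5p (305 CPM) were the lowest of all 12. Of the oligodendrocyte markers miR-338-3p (28349 CPM) and miR-219a-2-3p (2083 CPM) were the highest of the GLD2KO libraries, while miR-219a-5p (151 CPM) was the lowest of all 12. Of the neuronal markers miR-9-5p (118114 CPM) and miR-128-3p (36033 CPM) were the highest of all 12 there. The level of miR-137-3p (1505 CPM) was the highest of the GLD2KO libraries. The neuronal miR-124-3p (83102 CPM) and miR-138-5p (34010 CPM) lay within the range of the other GLD2KO libraries. The summed level of 5 choroid plexus and ependyma markers (1227 CPM) was the lowest of the 12 libraries. Of these miR-204-5p (757 CPM), miR-211-5p (1.96 CPM) and miR-449a-5p (9.78 CPM) were the lowest of the 12, while miR-34c-5p (429 CPM) and miR-1298-5p (29.3 CPM) were not. The summed level of the 3 microglia and leukocyte markers found in the table (147 CPM) was also the lowest of the 12. Of these miR-155-5p went the other way, at 7.82 CPM the highest GLD2KO value. These markers were singled out after their values were seen. None of these markers was at 0 in every library, and their part in the miR-23 levels was not tested.

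**Figure D2:**
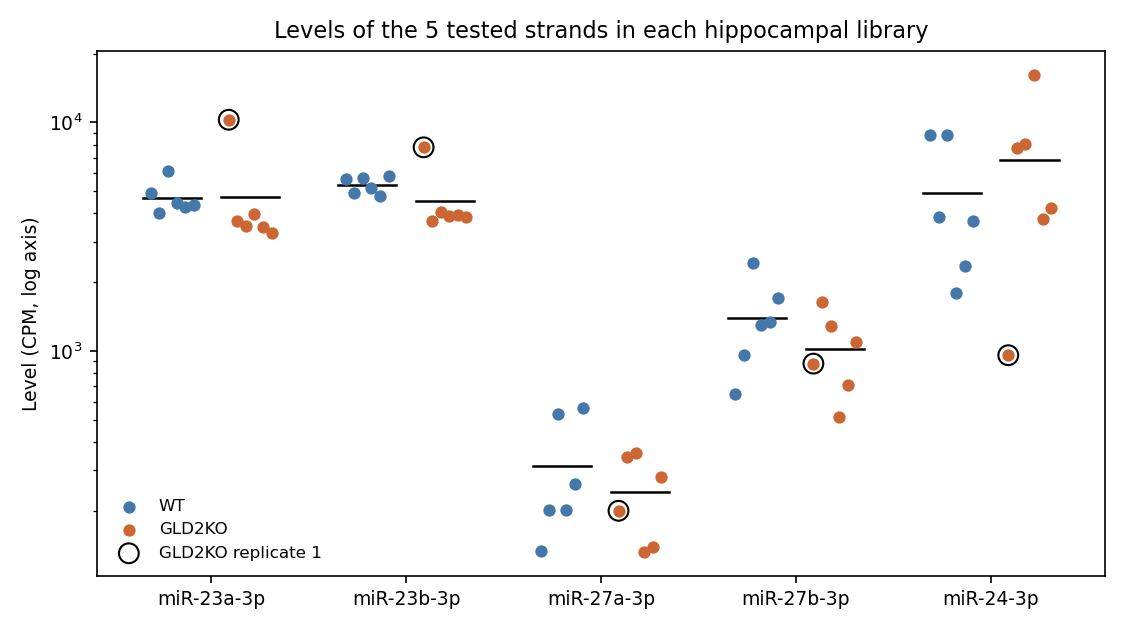
Levels in CPM on a log axis of the 5 tested strands, with 1 point per library, a black line for the mean of each genotype and a ring around GLD2KO replicate 1. That library holds the highest miR-23a-3p (10280 CPM) and miR-23b-3p (7785 CPM) and the lowest miR-24-3p (957 CPM) of the 12.

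The miR-27 strands were lower on average in GLD2KO, by less than the spread between libraries. The level of miR-27b-3p had a lowest, median and highest value of 649, 1320 and 2427 CPM in WT and 515, 985 and 1634 CPM in GLD2KO. The libraries overlapped broadly, with the highest in WT replicate 3 and the lowest in GLD2KO replicate 4. Means were 1397 ± 619 and 1018 ± 406 CPM (SD, n = 6 each), and the fold change on the log2 scale was -0.46 (SE 0.40, 95% interval -1.29 to 0.38, adjusted p = 0.978 by edgeR). It was -0.17 without WT replicate 3.

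For miR-27a-3p the values were 132, 231 and 561 CPM in WT and 132, 240 and 357 CPM in GLD2KO. The lowest libraries of both genotypes were nearly equal, and the WT mean rested on replicates 3 and 6, at 532 and 561 CPM. Means were 314 ± 184 and 242 ± 99.6 CPM, and the fold change on the log2 scale was -0.38 (SE 0.43, 95% interval -1.29 to 0.53, adjusted p = 0.978 by edgeR). It was -0.10 without WT replicate 3 and -0.12 without WT replicate 6.

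The neuronal miR-128-3p, whose seed overlaps that of miR-27, averaged 17386 ± 7254 CPM over the WT and 16637 ± 11393 CPM over the GLD2KO libraries. Its fold change on the log2 scale was -0.06 (SE 0.52, adjusted p = 0.990 by edgeR). Its lowest library, GLD2KO replicate 4 at 1620 CPM, was also the lowest for both miR-27 strands.

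The strand shared by both clusters, miR-24-3p, was the most variable. Its lowest, median and highest levels were 1794, 3782 and 8826 CPM in WT and 957, 5960 and 16205 CPM in GLD2KO, a 16.9-fold range over the 12 libraries. Both extremes were GLD2KO libraries, replicate 1 at the low end and replicate 4 at the high end. Means were 4888 ± 3138 and 6821 ± 5307 CPM, and the fold change on the log2 scale was 0.48 (SE 0.56, 95% interval -0.68 to 1.64, adjusted p = 0.978 by edgeR). It was 0.00 without GLD2KO replicate 4.

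To allow for reads that fit both relatives of a family, the relatives were also summed. The sum of miR-23a-3p and miR-23b-3p averaged 10080 ± 1123 CPM over the WT and 9264 ± 4572 CPM over the GLD2KO libraries, and the fold change on the log2 scale was -0.12 (SE 0.35, 95% interval -0.86 to 0.62, adjusted p = 0.983 by edgeR), and -0.47 without GLD2KO replicate 1. For the sum of miR-27a-3p and miR-27b-3p the means were 1719 ± 784 and 1251 ± 487 CPM, and the fold change on the log2 scale was -0.46 (SE 0.40, 95% interval -1.30 to 0.39, adjusted p = 0.983 by edgeR).

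**Figure D3:**
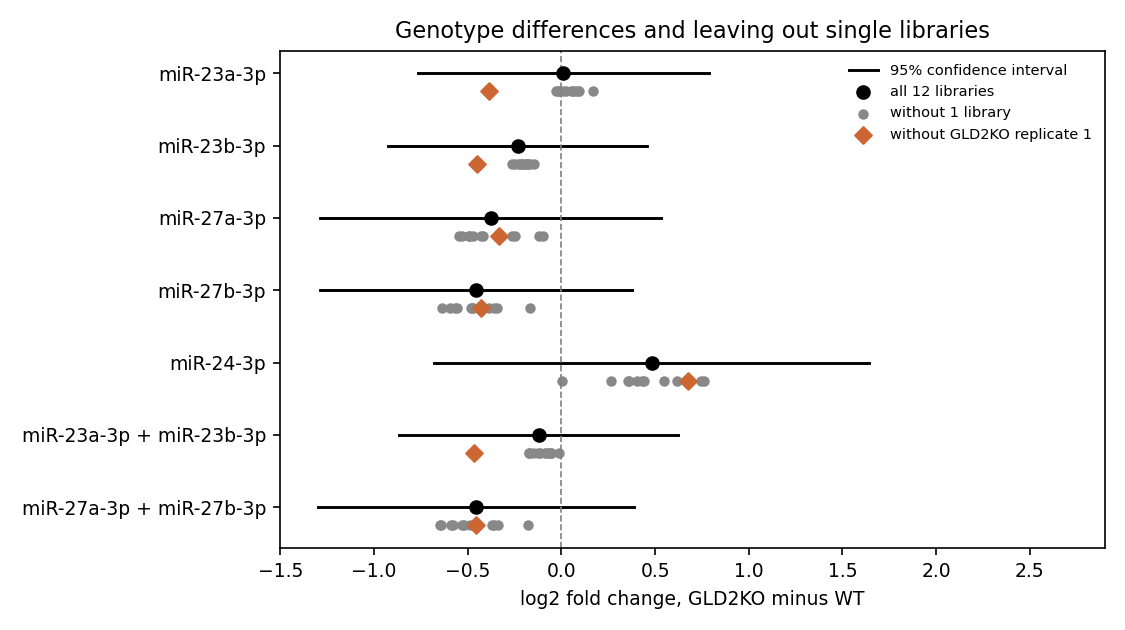
Log2 fold changes, GLD2KO minus WT, of the 5 tested strands and the 2 sums, with black points and lines for all 12 libraries and their 95% confidence intervals, grey points for leaving out 1 library and diamonds for leaving out GLD2KO replicate 1. Every interval includes 0, and the diamonds of miR-23a-3p (-0.39) and miR-23b-3p (-0.45) lie left of the other points of their rows.

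The 5p strands of the miR-24 hairpins were rare. Over all libraries miR-24-1-5p had 41 counts, 17 in WT and 24 in GLD2KO, and miR-24-2-5p had 19, 9 in WT and 10 in GLD2KO. Against 186768 counts of miR-24-3p these 60 counts were 0.0321% of the reads given to the miR-24 strands. Each had 0 counts in some libraries, miR-24-1-5p in WT replicate 5 and GLD2KO replicate 4, and miR-24-2-5p in WT replicates 3 and 6 and GLD2KO replicates 4 and 6. A count of 0 in these libraries allows up to 0.896 to 1.33 CPM at a limit of 3 counts, counting error only. These limits were taken on unscaled library totals, so they are not on the scale of the other CPM values. Neither strand passed the low-count filter, and their highest counts were 10 in WT replicate 2 for miR-24-1-5p and 4 in GLD2KO replicate 1 for miR-24-2-5p.

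The opposite arms of the other hairpins were also the rarer ones. The 5p share of the reads of both arms was 0.0519% for miR-23a, 0.0959% for miR-23b, 0.525% for miR-27a and 1.17% for miR-27b. Of these 4 strands 2 were tested and 0 passed in either direction. For miR-27b-5p the means were 12.1 ± 6.75 CPM (WT) and 18.5 ± 12.3 CPM (GLD2KO), and the log2 difference was 0.63 (SE 0.50, adjusted p = 0.978 by edgeR), opposite in sign to that of miR-27b-3p. For miR-23b-5p they were 5.36 ± 4.18 and 3.93 ± 2.41 CPM, and the log2 difference was -0.46 (SE 0.55, adjusted p = 0.978 by edgeR). On the minus strand the 3 miR-3074 names had 13, 7 and 2 counts in all, for miR-3074-5p, miR-3074-1-3p and miR-3074-2-3p, and none was tested. Of miR-3074-5p, 20 bases are the reverse complement of miR-24-3p, and whether the counting used strand is not given in the sources used here.

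Ratios within a library, which do not depend on scaling between libraries, were compared next for 6 pairs. The ratio of miR-23a-3p to miR-23b-3p lay between 0.751 in WT replicate 6 and 1.32 in GLD2KO replicate 1. Its log2 value averaged -0.20 ± 0.170 over the WT and -0.03 ± 0.240 over the GLD2KO libraries (SD), which differ by 0.17 (two-sided exact permutation p = 0.212, adjusted p = 0.891 over the 6 ratios). The ratio of miR-27a-3p to miR-27b-3p lay between 0.155 in WT replicate 4 and 0.329 in WT replicate 6, and its log2 value averaged -2.23 ± 0.355 over the WT and -2.08 ± 0.193 over the GLD2KO libraries, which differ by 0.15 (exact permutation p = 0.377, adjusted p = 0.891). Within each family the chromosome 8 and chromosome 13 strands therefore kept a ratio that varied less than the strands themselves, with a within-genotype SD of 0.208 for the miR-23 ratio and 0.286 for the miR-27 ratio on the log2 scale.

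Ratios between families of the same cluster ranged more widely. That of miR-27a-3p to miR-23a-3p ranged from 0.0194 to 0.129 and that of miR-27b-3p to miR-23b-3p from 0.113 to 0.442, with within-genotype SDs of 0.880 and 0.707 on the log2 scale. Their log2 differences, GLD2KO minus WT, were -0.17 and -0.15 (exact permutation p = 0.742 and adjusted p = 0.891 for each). The log2 ratio of miR-24-1-5p to miR-24-2-5p differed by 0.49 and that of both 5p strands to miR-24-3p by 0.13 (exact permutation, adjusted p = 0.891 and 0.907), on counts of at most 10 per 5p strand and library.

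Levels of both family pairs were correlated across libraries, and no other pair of the 7 strands passed the test. Over the 12 libraries Pearson's r of log2 CPM was 0.89 for miR-23a-3p with miR-23b-3p (permutation p, adjusted over 21 pairs, 0.00042; Spearman's rho 0.87, adjusted permutation p = 0.00378). It was 0.92 for miR-27a-3p with miR-27b-3p (adjusted permutation p = 0.00042; rho 0.92, adjusted permutation p = 0.00168). Without the 2 libraries farthest from the first strand's median, r was 0.86 for the miR-23 pair and 0.89 for the miR-27 pair. Those libraries were WT replicate 3 and GLD2KO replicate 1 for the miR-23 pair, and WT replicates 3 and 6 for the miR-27 pair. Leaving out each library in turn gave 0.83 to 0.93 and 0.90 to 0.95. Within WT alone r was 0.63 for the miR-23 pair, and within GLD2KO alone it was 0.98, a value that includes the far GLD2KO replicate 1. For the miR-27 pair r was 0.91 within WT and 0.95 within GLD2KO.

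Between families of the same cluster, r was 0.02 for miR-23a-3p with miR-27a-3p (rho -0.03) and 0.14 for miR-23b-3p with miR-27b-3p (rho 0.17), with adjusted permutation p values of 0.949 and 0.929. Without the 2 libraries farthest from the first strand's median these were -0.16 and 0.51. The libraries left out were WT replicate 3 and GLD2KO replicate 1 for the first pair and GLD2KO replicates 1 and 2 for the second. With library totals as the only scaling r was 0.35 and 0.54. The strand miR-24-3p had r = -0.47 with miR-23a-3p, -0.55 with miR-23b-3p, 0.03 with miR-27a-3p and -0.11 with miR-27b-3p, and none of these passed over the 21 pairs. With miR-23a-3p and miR-23b-3p r was 0.71 and 0.66 within WT and -0.76 and -0.84 within GLD2KO. The GLD2KO values include replicate 1, which held the highest miR-23a-3p and miR-23b-3p and the lowest miR-24-3p of all libraries. They were not computed without it, so no difference in sign by genotype is read from them, and none was tested. The pooled values rested on GLD2KO replicate 1, without which r was 0.12 for miR-23a-3p and -0.24 for miR-23b-3p. The difference between the correlations of families and of clusters was not tested. Reads of miR-27a-3p and miR-27b-3p are told apart by base 19 alone, and how the counting treated shared reads is not given in the sources used here. The sequence of miR-23b-3p was not matched, so the bases that tell it from miR-23a-3p are not given. The same limit can hold for that pair.

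**Figure D4:**
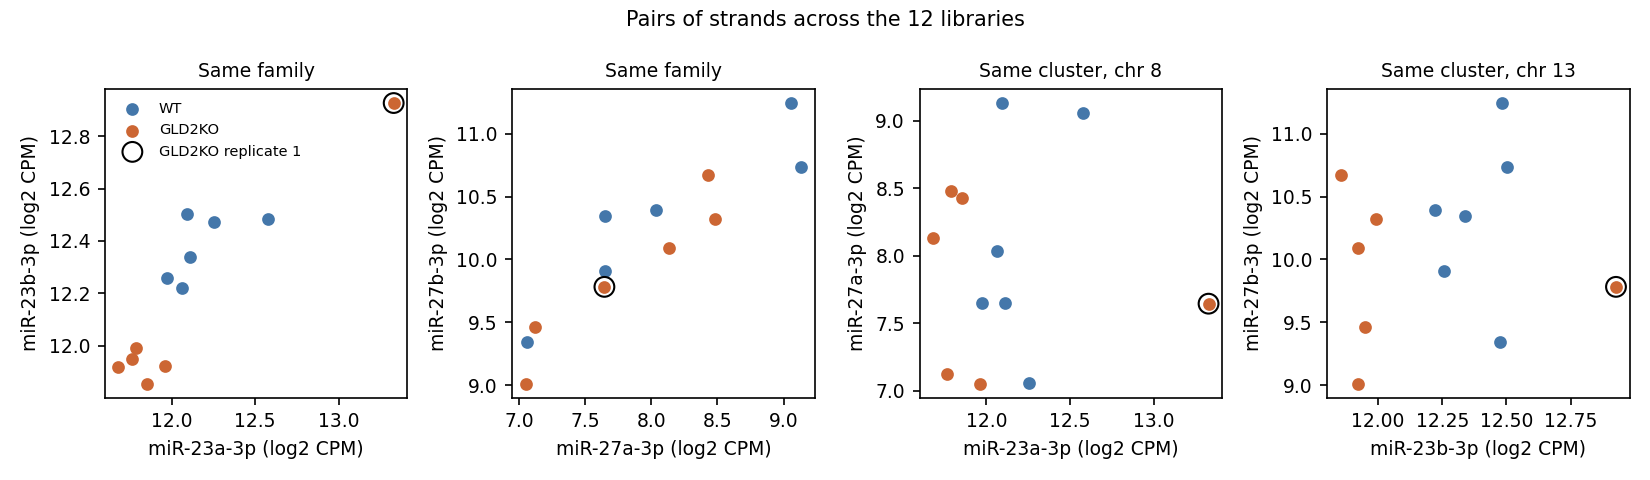
Log2 CPM of pairs of strands, with 1 point per library and a ring around GLD2KO replicate 1; the 2 panels on the left pair strands of a family and the 2 on the right pair strands of a cluster. Family pairs fall along a line (r = 0.89 and 0.92), and cluster pairs scatter (r = 0.02 and 0.14).

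The members ranged widely in their spread between libraries. The within-genotype SD of log2 CPM was 0.303 for miR-23b-3p, and 3 of the 521 miRNAs had a lower one. It was 0.469 for miR-23a-3p, with 33 lower, against a median of 0.809 over all tested miRNAs and 0.820 over the 81 with a mean of at least 1000 CPM. For miR-27b-3p and miR-27a-3p it was 0.630 and 0.741, and for miR-24-3p it was 1.19, with 448 of the 521 lower.

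**Figure D5:**
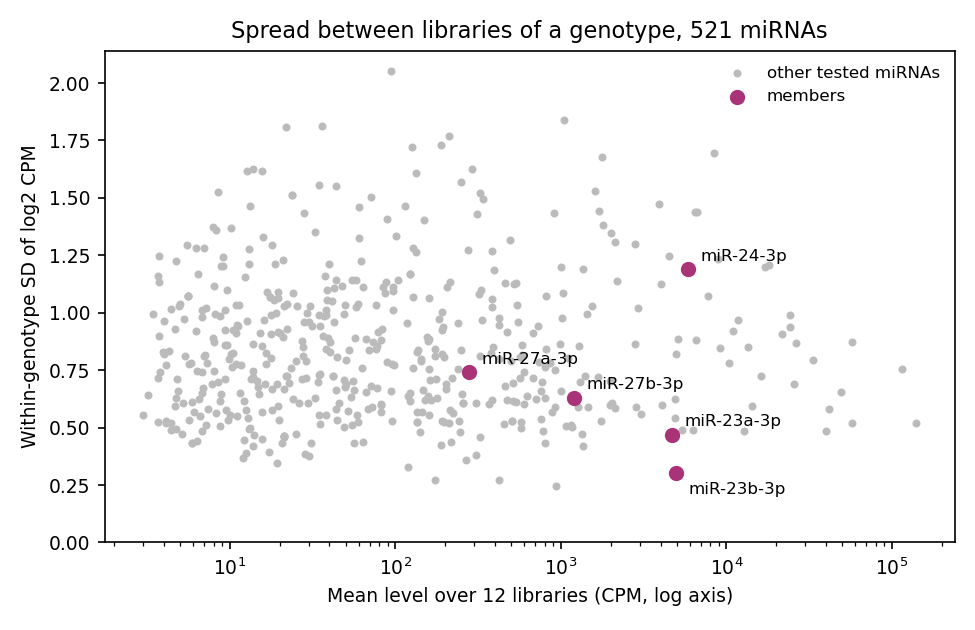
Within-genotype SD of log2 CPM against mean level in CPM (log axis) for the 521 tested miRNAs, with 1 point per miRNA and the 5 tested members in colour. At nearly the same mean level miR-23b-3p (0.303) lies near the lower edge and miR-24-3p (1.19) in the upper part.

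Outside the group, the miRNAs with the most similar pattern over the 12 libraries differed between families. For miR-23a-3p they were miR-181c-5p (r = 0.93, rho 0.93), miR-29c-3p (r = 0.85) and miR-369-3p (r = 0.81). The hairpin Mir181c lies on chromosome 8 (84178873 to 84178961) on the minus strand, 29556 bases before Mir23a, and its neighbour miR-181d-5p, looked up after these values were seen, had r = -0.17. For miR-23b-3p they were miR-376c-3p (r = 0.85), miR-181c-5p (r = 0.82) and miR-29c-3p (r = 0.73). For miR-27a-3p they were miR-15b-5p (r = 0.84), miR-145b (r = 0.78) and the smooth muscle miR-145a-5p (r = 0.76), and for miR-27b-3p they were miR-34a-5p (r = 0.89), miR-582-5p (r = 0.85) and miR-15b-5p (r = 0.83). For miR-24-3p they were miR-379-5p (r = 0.82), miR-423-5p (r = 0.77) and miR-431-5p (r = 0.75). These are the highest of the 516 miRNAs outside the group that were tested, and all points share the library scaling. For the rare 5p strands the highest were miR-143-5p for miR-24-1-5p (r = 0.80) and miR-130b-3p for miR-24-2-5p (r = 0.85), on at most 10 counts per library.

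Markers of other cell types were found in both genotypes, and 0 of them passed edgeR's test in either direction. Without the low-count filter the choroid plexus marker miR-1298-5p passed, with a log2 fold change of 2.92 (adjusted p = 1.26e-05 by edgeR) and 1767 CPM in GLD2KO replicate 6 against 18.1 to 83.0 CPM in the other 11 libraries. Vascular markers, led by miR-126a-3p and miR-145a-5p, summed to between 4802 and 16047 CPM in WT and between 6642 and 10210 CPM in GLD2KO. Of 3 blood markers listed, miR-451a and miR-144-3p were matched by name in the table, as were 3 of 5 microglia and leukocyte markers, and names without a match were not used. The blood pair summed to between 652 and 22943 CPM in WT and between 1148 and 24223 CPM in GLD2KO. Their part in the levels of the miR-23, miR-27 and miR-24 strands was not tested.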

How the data were processed

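The members and lists were chosen with earlier results of these data known. RNA was extracted with TRIzol and size-selected on a gel, and the libraries were sequenced on an Illumina HiSeq 2500, per the labels' protocols. Trimmomatic 0.32 and cutadapt 1.3 were used with GRCm38, per the submitters' processing notes, which give no roles. The handling of shared reads, as well as the aligner and counter, is not given in the sources used here. The deposited table holds raw counts per mature miRNA and library, not normalized, with 1908 named rows and 1 unnamed row of 0 counts, which was left out.

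The genotype test was glmQLFTest of edgeR 4.0.16 in R 4.3.3 on the counts (scaled by TMM, filtered with filterByExpr by genotype, Benjamini-Hochberg over 521 miRNAs), a step checked on simulated data. CPM used TMM-scaled library sizes, except the limits for counts of 0, which used unscaled library totals. For log2 CPM a prior count of 2 was used. Ratios used a pseudocount of 0.5 and exact permutation over 924 relabellings. Correlations used 100000 permutations. Hairpins came from GENCODE M21. Alternatives were DESeq2 1.42.0, limma-voom (limma 3.58.1), other scalings and filters, a robust fit, the replicate block and leaving out libraries. An unadjusted p under 0.05 is given as background only. By rule, the named miRNAs are the members, their opposite arms and antisense names, same-seed miRNAs, miR-128-3p, the 3 most similar miRNAs per member, and the 2 most abundant markers of a list. The labels describe separate mice and give no batch.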

Additional observations from a re-analysis of the deposited data

Results flagged for a closer look

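Of 28 groups of 6 libraries (7 strands, 6 ratios and the share of counts, each in both genotypes), 4 held a single library set apart by a wide gap. A rate of 1 in 20 would give 1.4 of 28, but that rate assumes independent, normally distributed values. The groups are not independent, as related strands share libraries, so no excess over chance is read from these counts. For miR-23a-3p it was GLD2KO replicate 1 with 10280 CPM, while the remaining GLD2KO libraries spanned 3287 to 3986 CPM. For miR-23b-3p it was the same library with 7785 CPM, while the rest of that genotype spanned 3702 to 4073 CPM. The rare miR-24-1-5p had such a library in both genotypes, on few counts. It reached 4.40 CPM, or 9 counts, in GLD2KO replicate 1 (0 to 1.60 CPM elsewhere in GLD2KO) and 3.17 CPM, or 10 counts, in WT replicate 2 (0 to 1.18 CPM elsewhere in WT).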

How the results depend on the processing

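Without a filter on low counts, 7 of 1325 miRNAs passed edgeR's test, of which 0 were among the 7 strands and 1 was the choroid plexus marker miR-1298-5p, and every other alternative run called 0. Of the fold changes, only that of miR-23a-3p turned by more than its error, to -0.39 without GLD2KO replicate 1. It lay near 0 and changed sign in 8 of 22 alternatives. Those of miR-23b-3p, miR-27a-3p, miR-27b-3p and miR-24-3p kept their sign in all 22, and 0 passed. Leaving out GLD2KO replicates 4 and 6 and WT replicate 6 together, a choice made with earlier results known, brought 3 of them close to 0, with -0.08 for miR-23b-3p, -0.03 for miR-27a-3p and 0.02 for miR-24-3p, while miR-27b-3p was at -0.25 and miR-23a-3p at 0.16. Leaving out 1 library gave -0.39 to 0.17 for miR-23a-3p, -0.45 to -0.15 for miR-23b-3p, -0.55 to -0.10 for miR-27a-3p, -0.64 to -0.17 for miR-27b-3p and 0.00 to 0.76 for miR-24-3p. The labels do not say whether the replicate numbers pair the mice. Correlations of same-numbered deviations ran from -0.23 to 0.24, which cannot decide it, because a pairing with little effect on levels would look the same. With the replicate block edgeR called 0 (17 at an unadjusted p under 0.05), and the log2 fold changes were -0.13 for miR-23a-3p, -0.29 for miR-23b-3p, -0.30 for miR-27a-3p, -0.45 for miR-27b-3p and 0.37 for miR-24-3p. No ratio passed under any of 14 alternatives, and both family correlations passed under all of theirs, including leaving out each library, which was added after seeing the data. The median half-width of the 95% intervals, which are not adjusted for the number of miRNAs, was 0.955 on the log2 scale. Smaller differences were therefore mostly not detectable. Some larger ones did not pass the adjusted test either, such as -1.27 for miR-145a-5p (adjusted p = 0.841 by edgeR).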
